A study of Mus musculus with 8 samples.

Results

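The genes described here run glucose release and glucose use in the liver: G6pc, Slc37a4, Pck1, Fbp1, Pcx and Ppargc1a on the output side, and Slc2a2, Pklr and Mlxipl on the side of uptake and use. Members were all probe sets whose single gene symbol in the platform annotation was one of these 9 symbols. The rule found 14 of 12488 probe sets, for 8 of the 9 genes, out of 8252 genes that have a probe set with a single symbol. Of these probe sets, 10 were gene probe sets and 4 were the array's own pyruvate carboxylase controls, which carry the symbol Pcx. Mlxipl was not analysed here. The samples were livers of 8 female Ames dwarf mice (df/df), a strain that lacks growth hormone, prolactin and thyroid-stimulating hormone, killed at 24 to 26 months of age after unrestricted feeding on a standard pelleted diet. RNA of each liver was hybridised to its own Affymetrix mouse U74Av2 array. All 8 samples formed 1 group with the same genotype, sex and diet, so the values below describe differences from liver to liver and no effect of a genotype or diet.

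Gluconeogenesis makes glucose from lactate, amino acids and glycerol when food is short. Pyruvate carboxylase and phosphoenolpyruvate carboxykinase turn pyruvate carbon back towards sugar, and fructose-1,6-bisphosphatase and glucose-6-phosphatase complete the route. The last step takes place inside the endoplasmic reticulum, which needs a transporter for glucose-6-phosphate. After a meal insulin restrains the output genes, while glucagon and glucocorticoids raise them through cAMP-dependent factors, FOXO1 and the coactivator PGC-1 alpha. Pyruvate kinase works in the opposite direction, as the last step of glycolysis, and its gene responds to carbohydrate through ChREBP, the product of Mlxipl.

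The promoters of G6pc, Pck1 and Pklr are shown because they carry the letters through which these hormone and carbohydrate signals are known to act, and because G6pc and Pklr were the tested members that varied most while Pck1 shared its extreme livers with G6pc. Each runs from 250 bases before to 50 bases after the RefSeq start site (build GRCm38.p6), 5′ to 3′ on the plus strand. Capitals mark matches to the motifs listed after the sequences. For Pklr the downstream of its 2 start sites is shown, the one used in liver.
G6pc, chr11:101367466-101367765, plus strand: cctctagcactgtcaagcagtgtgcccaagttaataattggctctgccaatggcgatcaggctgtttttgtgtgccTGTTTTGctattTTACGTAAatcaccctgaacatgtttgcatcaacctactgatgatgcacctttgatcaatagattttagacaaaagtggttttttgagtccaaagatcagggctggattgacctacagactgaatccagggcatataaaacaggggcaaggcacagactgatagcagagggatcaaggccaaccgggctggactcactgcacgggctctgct
Pck1, chr2:173152823-173153122, plus strand: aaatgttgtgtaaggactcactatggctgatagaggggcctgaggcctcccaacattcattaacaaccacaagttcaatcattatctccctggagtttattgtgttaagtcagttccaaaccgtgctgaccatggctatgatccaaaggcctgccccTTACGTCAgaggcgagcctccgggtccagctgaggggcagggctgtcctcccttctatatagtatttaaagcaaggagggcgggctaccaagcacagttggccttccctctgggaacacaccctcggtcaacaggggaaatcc
Pklr, chr3:89136373-89136672, plus strand: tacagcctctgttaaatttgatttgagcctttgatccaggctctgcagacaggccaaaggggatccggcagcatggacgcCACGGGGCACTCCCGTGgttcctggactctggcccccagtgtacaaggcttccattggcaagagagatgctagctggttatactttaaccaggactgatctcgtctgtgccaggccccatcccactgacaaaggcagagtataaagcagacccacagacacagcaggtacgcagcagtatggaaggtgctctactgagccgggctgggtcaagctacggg

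The motif types below were searched on both strands in the 14 RefSeq promoters of the 9 genes. The cAMP response type, TNACGTNA, matched at -162 to -155 in G6pc and at -93 to -86 in Pck1, counted from the start site, and in no other of these promoters. It occurs in 4.49% of all 32851 promoters of this length. The insulin response type, TGTTTTG, matched only in G6pc, at -174 to -168, a few bases before the cAMP type and not overlapping it, against 6.28% of all promoters. The carbohydrate response type, a pair of E-box-like letters with a spacer, matched at -170 to -154 in Pklr and occurs in 0.496% of all promoters. The plain E-box, CACGTG, matched in the upstream promoters of Mlxipl and Pcx (7.15% of all promoters), and the FOXO type, TGTTTAC, in none of the 14 (3.65% of all promoters). These matches describe letters in the window and do not show binding.

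The arrays were alike in overall signal. Liver 3 had the lowest median intensity (156) and liver 8 the highest (181), and Pearson correlations between arrays across 6211 probe sets ranged from 0.907 to 0.973. Of 10 hepatocyte markers, 9 had a probe set and none lay below the array median, with summed signals of 130677 to 179667. All 6 kidney markers with a probe set, from a tissue that also makes glucose, lay below the array median, with summed signals of 132.5 to 318, and Umod and Miox were at the floor on every array. Summed signals were 2571.6 to 4624 for 7 endothelial markers, 345.7 to 802 for 4 pancreas markers and 848.4 to 1559.5 for 4 adipocyte markers. Livers 4 and 8 stood apart from the others. The 12 macrophage markers summed to 28451 in liver 4 and 19995 in liver 8, against 5897 to 11809 in the other livers, and all 11 tested ones were highest in liver 4, against 17.7% of all tested genes. The 14 interferon-response genes summed to 65038 in liver 4 and 46528 in liver 8, against 4478 to 16790 elsewhere (16789.8 in liver 1). Ranges of the members, their correlations and the counts over pathway lists are therefore also given without livers 4 and 8. In whole-liver RNA, fewer hepatocytes and less RNA per hepatocyte cannot be told apart. Levels are not compared between genes, since probe sets differ in how brightly they respond.

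G6pc, the catalytic subunit of glucose-6-phosphatase, differed more between livers than any other member. Its signal was 3402 in liver 1, 1773 in liver 2, 6428 in liver 3, 1034 in liver 4, 3281 in liver 5, 1722 in liver 6, 1584 in liver 7 and 4105 in liver 8. Liver 3 was highest and liver 4 lowest, a 6.21-fold range around a mean of 2916 ± 1779.6 (SD, n = 8). Livers 1, 3, 5 and 8 read 3281 or more and livers 2, 4, 6 and 7 read 1773 or less, with nothing between. The SD of 0.87 on the log2 scale was larger than that of 98.0% of the 500 probe sets nearest to it in signal. In the typical-variance test, which asks whether a probe set varied more than is usual at its signal, G6pc passed (adjusted p = 5.23e-18). That test called 702 of 6211 probe sets (11.3%). limma's test against the spread of all variances called 0 of 6211 (0%) and so did not call G6pc (unadjusted p = 0.00301, adjusted p = 0.271), while 425 probe sets (6.84%) had an unadjusted p under 0.05. Without livers 4 and 8 the range of G6pc was 4.06-fold, from 1584 to 6428, and without liver 3 it was 3.97-fold.

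**Figure D1:**
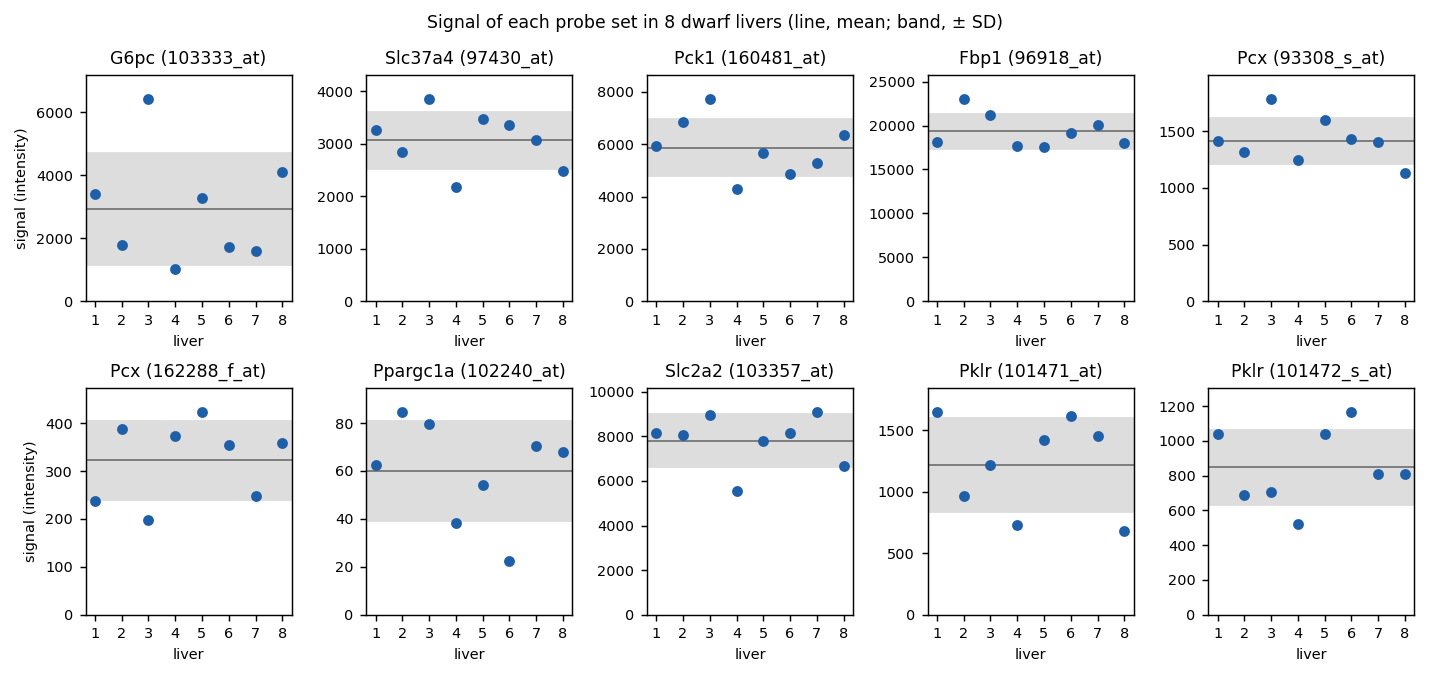
Signal (linear intensity, y axis) of the 10 gene probe sets in livers 1 to 8 (x axis), with the mean as a line and ± 1 SD as a band. G6pc spans 1034 to 6428, whereas Fbp1 stays between 17505 and 23042.

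Slc37a4, the transporter that brings glucose-6-phosphate to G6pc in the endoplasmic reticulum, moved far less. Its signal ran from 2180.2 in liver 4 to 3855 in liver 3, with a median of 3166 and a mean of 3065 ± 547 (SD, n = 8), a 1.77-fold range that narrowed to 1.36-fold without livers 4 and 8. It did not pass the typical-variance test (adjusted p = 0.643). Liver 8 set the pair apart: G6pc there was the second highest of the 8 (4105) and Slc37a4 the second lowest (2479.7). The log2 difference between G6pc and Slc37a4, each centred on its own mean, was therefore as large in liver 8 (1.01) as in liver 3 (1.02), and lowest in liver 4 (-0.80).

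Pck1, cytosolic phosphoenolpyruvate carboxykinase, a classic target of glucagon and insulin, showed liver 3 highest and liver 4 lowest as G6pc did, over a narrower span. The signal was 4283 in liver 4, 5805 at the median and 7734 in liver 3, a 1.81-fold range (1.59-fold without livers 4 and 8) with a mean of 5870.15 ± 1103 (SD, n = 8). It did not pass the typical-variance test. Liver 8 again lay in the upper part, at 6339, below livers 3 and 2 alone.

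Fbp1, fructose-1,6-bisphosphatase, was the steadiest member. Its signal was lowest in liver 5 (17505), 18626 at the median and highest in liver 2 (23042), a 1.32-fold range, also without livers 4 and 8, with a mean of 19329 ± 1980.3 (SD, n = 8). Its log2 SD of 0.14 exceeded that of 24.0% of the 500 probe sets nearest in signal, and it did not pass the typical-variance test. This is the brightest of the 10 gene probe sets.

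Pcx, pyruvate carboxylase, the first step of gluconeogenesis from pyruvate, was measured by 6 probe sets that did not all follow each other. The brighter gene probe set read 1134 in liver 8, 1408 at the median and 1785 in liver 3 (1415 ± 203, SD, n = 8, 1.57-fold, and 1.36-fold without livers 4 and 8). The dimmer one read 197 in liver 3 and 423 in liver 5 (322 ± 82.5, SD, n = 8, 2.15-fold with or without livers 4 and 8), so liver 3 was highest on one and lowest on the other. Over the 8 livers these probe sets were not correlated past the threshold (r = -0.491, exact permutation p = 0.217, adjusted over 9 pairs of probe sets p = 0.39, rho = -0.333 with p = 0.428; leaving out the 2 most distant livers, r = 0.0609).

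The 4 control probe sets are named from the 5′ end, through MA and MB, to the 3′ end of the same transcript. Their signals ran from 503.5 in liver 2 to 1331.5 in liver 6 at the 5′ end, from 769 to 1796 for MA, from 1265 to 2885 for MB and from 3224 in liver 4 to 4661 in liver 3 at the 3′ end. Liver 2 was lowest on the first 3 of these and above all but livers 3 and 5 at the 3′ end (4438), which gave it the highest 3′ to 5′ ratio, 8.81, against 2.93 to 6.04 in the other livers. Of the 4 controls, the 3′ one had the highest r with the brighter gene probe set, without passing the threshold (r = 0.797, exact permutation p = 0.017, adjusted p = 0.0511, rho = 0.762 with p = 0.0368, adjusted p = 0.138; leaving out the 2 most distant livers, r = 0.663). The 5′ control had the lowest r with it (r = 0.0302, exact permutation p = 0.943). The 5′ and 3′ controls had r = -0.225 (exact permutation p = 0.592, rho = -0.262 with p = 0.536). Which Pcx value is read therefore decides the order of the livers, and the values below are those of the brighter gene probe set.

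**Figure D2:**
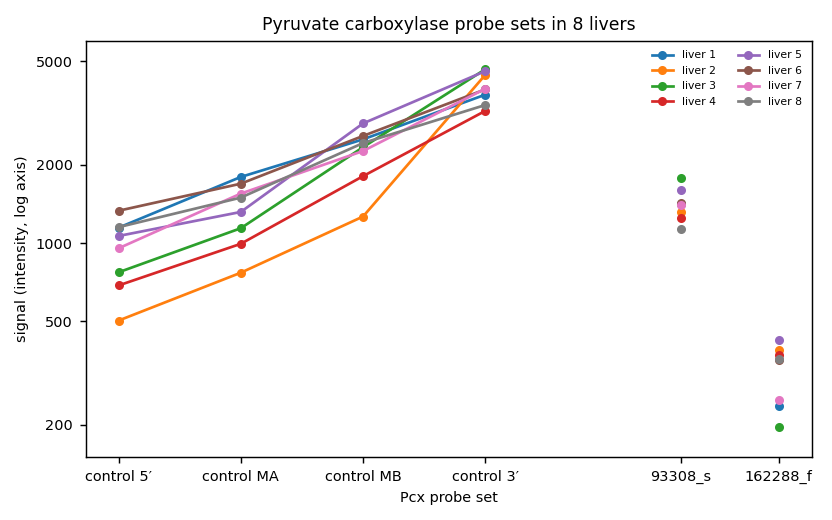
Signal (log axis) of the 6 Pcx probe sets, the 4 controls from 5′ to 3′ joined by lines and the 2 gene probe sets at the right, with 1 colour for each liver. Liver 2 rises from 503.5 at the 5′ end to 4438 at the 3′ end, the steepest line.

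Ppargc1a, which encodes the fasting-induced coactivator PGC-1 alpha, was dim on every array. Its signal was 22.5 in liver 6, 65.2 at the median and 84.6 in liver 2 (60.0 ± 21.0, SD, n = 8), below the median probe set on all 8 arrays, and it was not tested for that reason. Without detection calls such signals cannot be told from background. The gene is known to be low in fed liver and to rise on fasting.

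Slc2a2, the glucose transporter GLUT2, which lets glucose pass in both directions, was uniform except in livers 4 and 8. Its signal was 5558 in liver 4 and 6667 in liver 8, against 7787 to 9093.5 in the other 6. The mean was 7811 ± 1178 (SD, n = 8, 1.64-fold), and the range without livers 4 and 8 was 1.17-fold. It did not pass the typical-variance test (adjusted p = 0.817).

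Pklr, liver pyruvate kinase, was the other member that varied beyond its signal class. Its brighter probe set read 676 in liver 8 and 729.9 in liver 4, 1317 at the median and 1645 in liver 1 (1214 ± 384, SD, n = 8, 2.43-fold), and it passed the typical-variance test (adjusted p = 0.000178). The second probe set read 523 in liver 4 and 1166 in liver 6 (847.5 ± 218, SD, n = 8, 2.23-fold), just missed that test (adjusted p = 0.0512), and placed liver 8 in the middle, at 807. The 2 probe sets had r = 0.745 (exact permutation p = 0.0371, adjusted over 9 pairs p = 0.0835, rho = 0.738 with p = 0.0458; leaving out the 2 most distant livers, r = 0.847). The call rested on livers 4 and 8: without them the range of the brighter probe set was 1.71-fold and the adjusted p in the typical-variance test 0.432. Pklr is also the pyruvate kinase of red cells. The 3 red cell markers with a probe set summed to 7349 in liver 7 and 15583 in liver 5, and the brighter Pklr probe set read 1448 and 1415.5 there. Their part in the Pklr values was not tested.

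By gene, 2 of 7 tested members passed the typical-variance test, G6pc and Pklr, against 10.3% of the 4819 tested genes. Without livers 4 and 8 only G6pc passed, against 7.15% of tested genes. The median log2 SD was 0.27 for the 7 members and 0.23 for all tested genes.

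**Figure D3:**
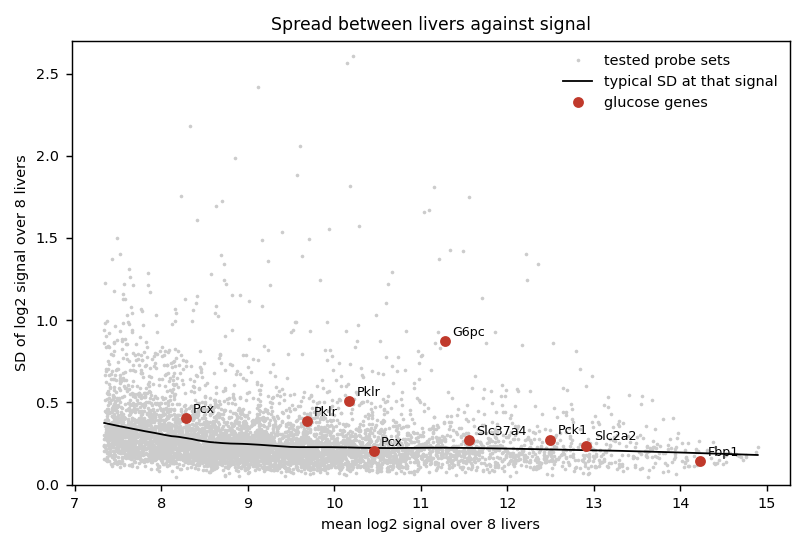
SD of log2 signal over the 8 livers (y axis) against mean log2 signal (x axis) for 6211 tested probe sets in grey, with the typical SD at each signal as a line and the glucose genes in red. G6pc (0.87) lies far above the line, Pklr (0.51 and 0.38) above it, and Fbp1 (0.14) below it.

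In the values as deposited, liver 3 held the highest values of most output genes, while the uptake genes peaked in liver 7 (Slc2a2) and liver 1 (Pklr). Slc2a2 in liver 3 was close to its peak (8977 against 9093.5). Of the 7 tested members, 4 were highest in liver 3 (G6pc, Slc37a4, Pck1, Pcx), all of them output genes, against 11.4% of all tested genes. Also 4 were lowest in liver 4 (G6pc, Slc37a4, Pck1, Slc2a2), against 22.4% of all tested genes, while Pcx and Pklr were lowest in liver 8 and Fbp1 in liver 5. In liver 4 all 7 lay below their own mean, from -0.13 for Fbp1 to -1.27 for G6pc on the log2 scale. In liver 3 all 7 lay above it, except that Fbp1 fell to -0.06 after quantile normalization. These counts used the brighter Pcx and Pklr probe sets. The dimmer Pcx probe set was lowest in liver 3 (197) and above its mean of 322 in liver 4 (372). The second Pklr probe set lay below its mean in liver 3 (-0.23), was lowest in liver 4 and highest in liver 6. Scaling arrays to a common median shifted whole arrays by up to 0.11 in log2 signal for liver 3 and -0.10 for liver 8. That scaling left G6pc, Slc37a4, Pck1, Pcx and Pklr with the same highest and lowest livers. It moved the highest Slc2a2 value from liver 7 to liver 3 (centred log2 signal 0.33 in liver 3 and 0.25 in liver 7). The lowest Fbp1 value moved from liver 5 to liver 4.

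Liver 8 split the members. G6pc (0.72) and Pck1 (0.13) were above their own means there, while Slc37a4 (-0.28), Pcx (-0.31), Fbp1 (-0.10), Slc2a2 (-0.21) and Pklr (-0.77) were below. The dimmer Pcx probe set was above its mean there (358 against 322), and the second Pklr probe set was near its own (-0.03). Of these, Slc37a4, Pcx, Slc2a2 and Pklr had livers 4 and 8 as their lowest pair, against 11.5% of all tested genes. G6pc relative to Pklr, as the difference of centred log2 signals, was highest in livers 8 (1.49) and 3 (1.29) and lowest in livers 6 (-1.02) and 7 (-0.98). The mean of the 5 output genes minus the mean of the 2 uptake genes ran from -0.42 in liver 7 to 0.53 in liver 8. Both maxima in liver 8 rested on the brighter Pklr probe set. With the second one, G6pc relative to Pklr was highest in liver 3 (1.59) and stood at 0.75 in liver 8, and output minus uptake was highest in liver 3 (0.53) and stood at 0.15 in liver 8.

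**Figure D4:**
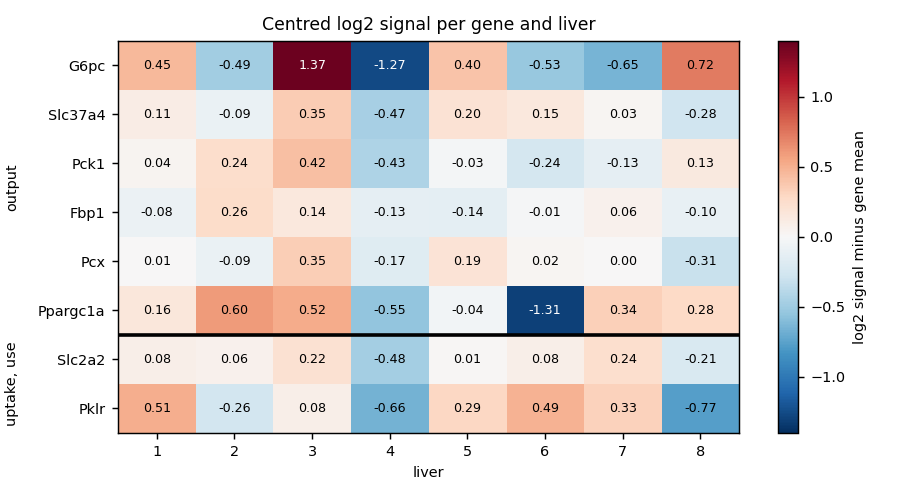
Log2 signal minus the gene's own mean, by gene (rows, output genes above the line and uptake genes below it) and liver (columns). Liver 4 is negative in all 8 rows and liver 3 positive in all 8, while liver 8 runs from 0.72 for G6pc to -0.77 for Pklr.

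Among the 7 tested members, each read from its brightest non-control probe set, no output gene had a negative Pearson r with an uptake gene over all 8 livers. The dimmer Pcx and second Pklr probe sets did not enter these pairs. Some did once livers 4 and 8 were left out. By rank, Pck1 with Pklr (rho = -0.214) and G6pc with Pklr (rho = -0.0714) were negative over all 8 livers. Of the 21 pairs among the 7 tested members, all had a positive Pearson r on the brightest probe sets. The median was 0.525, against 0.005 over all pairs of tested genes. With both Pcx gene probe sets averaged, Slc37a4 with Pcx had r = -0.0466. The median was 0.476 for 10 pairs of output genes and 0.544 for 10 pairs of an output with an uptake gene. Without livers 4 and 8, 14 of 21 pairs were positive with a median of 0.225. For an output with an uptake gene, 7 of 10 were then positive with a median of 0.169, and Fbp1 with Pklr (-0.847) and Pck1 with Pklr (-0.705) were opposed over the other 6 livers. After centring within arrays 1 to 4 and 5 to 8, whose spike-in controls differed (mean log2 signal 10.70 to 10.88 on the first 4 and 10.18 to 10.46 on the last 4), all 21 were positive with a median of 0.548.

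Single pairs were tested by exact two-sided permutation over all 40320 pairings and adjusted over all 28 member pairs, those with Ppargc1a included. By Pearson's r, 0 of 28 passed after adjustment and 6 had an unadjusted p under 0.05. Slc37a4 and Pcx came closest (r = 0.889, exact permutation p = 0.0034, adjusted p = 0.0889), and their ranks did pass (rho = 0.976, exact permutation p = 0.000397, adjusted p = 0.0111). Leaving out the 2 livers most distant from the Slc37a4 median, which are livers 4 and 8, gave r = 0.941, and centring within arrays 1 to 4 and 5 to 8 gave r = 0.913. With the mean of both Pcx gene probe sets in place of the brighter one r was -0.0466.

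G6pc and Pck1 had r = 0.797 (exact permutation p = 0.018, adjusted p = 0.126) and rho = 0.833 (exact permutation p = 0.0154, adjusted p = 0.203). The value was 0.821 after centring within arrays 1 to 4 and 5 to 8, 0.673 without livers 4 and 8, and 0.375 with the 2 livers most distant from the G6pc median left out. Without liver 2 it was 0.966 and passed (adjusted p = 0.0222). Pairs with Ppargc1a are counted among the 28 but not described singly, since the order of its signals may be that of background.

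G6pc and Pklr showed no correlation past the threshold (Pearson's r = 0.127, exact permutation p = 0.756, adjusted p = 0.916, rho = -0.0714). Slc2a2 and Pklr had r = 0.763 (exact permutation p = 0.0257, adjusted p = 0.127, rho = 0.643 with p = 0.0962), which rested on livers 4 and 8, as r without them was -0.0288. Slc37a4 with Slc2a2 and with Pklr had r = 0.86 and 0.813 (exact permutation p = 0.00635 and 0.0146, adjusted p = 0.0889 and 0.126), and 0.205 and 0.316 without livers 4 and 8.

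**Figure D5:**
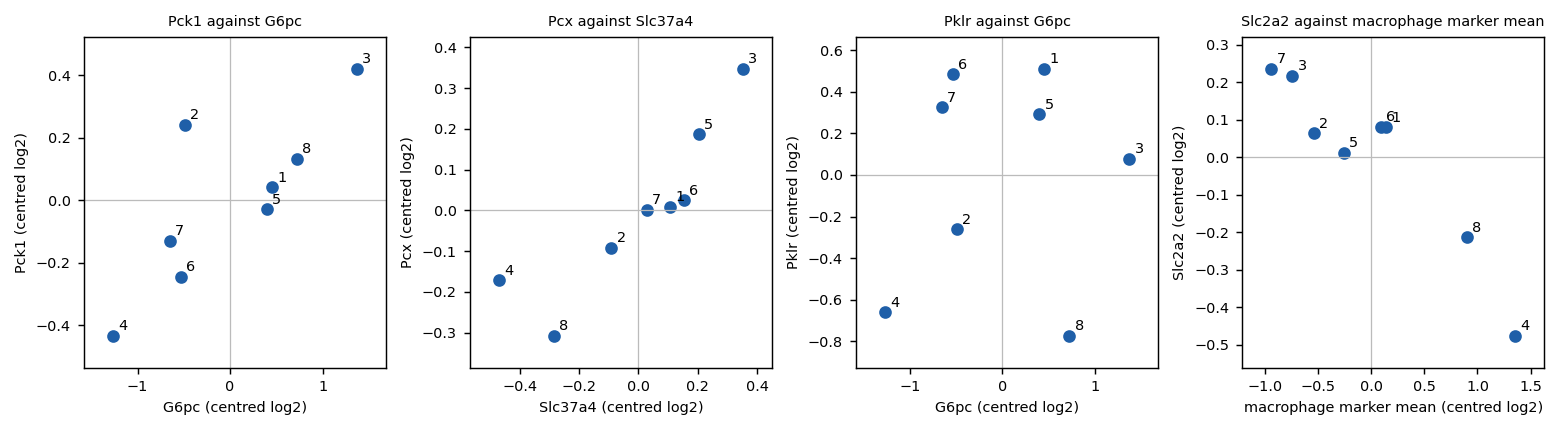
Centred log2 signals of 3 pairs of genes, and of Slc2a2 against the mean of 12 macrophage markers, each point a liver with its number. Liver 3 lies at the upper right and liver 4 at the lower left for G6pc with Pck1, and liver 8 lies apart in the panel of Pklr against G6pc.

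Macrophage, interferon-response and acute-phase markers moved with several members, and their part in these values was not tested. All 24 correlations of the 8 members with the 3 marker means were negative, and 1 of 24 passed after adjustment. Without livers 4 and 8, Pklr had positive r with the macrophage (0.551), interferon (0.787) and acute-phase (0.705) means. Slc37a4 with the macrophage mean then had r = 0.0615, and the other relations stayed negative. Slc2a2 was lower where the macrophage mean was higher (r = -0.936, exact permutation p = 0.00109, adjusted p = 0.0262; rho = -0.81, exact permutation p = 0.0218, adjusted p = 0.227). That r was -0.937 after centring within arrays 1 to 4 and 5 to 8 and -0.72 without livers 4 and 8, which are also the 2 most distant from the Slc2a2 median. The call was lost without liver 3, 4, 7 or 8 (adjusted p = 0.081, 0.21, 0.0667 and 0.21 from exact permutation). G6pc had the weakest relation to the macrophage mean (r = -0.266, exact permutation p = 0.515, rho = -0.0952), and liver 8 was high for both. Of 32 correlations of members with array measures (median signal, spike-in signal and the 3′ to 5′ ratios of Gapdh and Pcx), 0 passed after adjustment and 4 had an unadjusted p under 0.05. The strongest of these was Pcx with the median signal (r = -0.897, exact permutation p = 0.00623, adjusted p = 0.122, rho = -0.667 with p = 0.0831; r = -0.605 leaving out the 2 most distant livers and -0.903 after centring).

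The other genes of the pathway were taken from 7 lists. Among enzymes shared by glycolysis and gluconeogenesis, 0 of 3 tested genes passed the typical-variance test, against 10.3% of all tested genes. Pgk1, phosphoglycerate kinase, varied most of them, from 3238 in liver 2 to 4955 in liver 5 (1.53-fold). Among genes that supply or shuttle gluconeogenic carbon, 2 of 7 tested genes passed, against the same 10.3%. Tat, tyrosine aminotransferase, a glucocorticoid-induced amino acid enzyme, ran from 9274 in liver 4 to 21338 in liver 3, the same end livers as G6pc and Pck1. Gpd1, cytosolic glycerol-3-phosphate dehydrogenase, ran from 1492.5 in liver 8 to 3793 in liver 1, the same end livers as the brighter Pklr probe set. Without livers 4 and 8, Tat passed and Gpd1 did not, against 7.15% of tested genes.

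Among genes of glucose uptake and glycolysis 3 of 9 tested genes passed, against 10.3% of all tested genes. Pkm, the pyruvate kinase of most tissues other than hepatocytes, had signals of 1617 in liver 4 and 867 in liver 8, against 257 to 482 in the other 6, and these 2 livers were also the lowest on the brighter Pklr probe set. On the second Pklr probe set liver 4 was lowest and liver 8 was in the middle. The macrophage markers were also highest in these 2 livers (summed signals of 28451 and 19995), and their part in the Pkm values was not tested. Pdk1, which restrains pyruvate dehydrogenase, ran from 415 in liver 4 to 1212 in liver 3, and Hk1, hexokinase 1, from 1766 in liver 8 to 4751 in liver 2. Of these 9 genes only Pdk1 passed without livers 4 and 8, against 7.15% of tested genes. Of 8 tested glycogen genes 0 passed, against 10.3% of all tested genes, and 5 were lowest in liver 4, against 22.4%. Ppp1r3c, which targets protein phosphatase 1 to glycogen, varied most, from 98.5 in liver 4 to 258 in liver 2.

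In the list of output regulators, which also held targets such as Igfbp1, 7 of 19 tested genes passed the typical-variance test, against 10.3% of all tested genes. Without livers 4 and 8, 6 of 19 passed, against 7.15%. Igfbp1 was counted among those that passed in both cases. The 3 with the largest SDs were Igfbp1, an insulin-repressed FOXO1 target (709 in liver 5 to 10169.6 in liver 4), Nr4a1, a cAMP-induced nuclear receptor (128 in liver 6 to 1479 in liver 3), and Ppara, the fasting-activated fatty acid receptor (678 in liver 6 to 3925 in liver 3). Igfbp1 was highest in liver 4, where G6pc was lowest, and next highest in liver 3 (9456), where G6pc was highest. Liver 3 held the highest value of 6 of these 19 genes, against 11.4% of all tested genes. Of 9 tested genes of hormone input 0 passed, against 10.3% of all tested genes. Insr, Irs1, Irs2 and Grb10 had median signals below the array median and were not tested. Akt2, the insulin-signalling kinase of liver, varied most of the tested ones, from 849.5 in liver 4 to 1426 in liver 3. Of 9 tested carbohydrate-response genes 4 passed, against 10.3% of all tested genes, and 5 without livers 4 and 8, against 7.15%. Thrsp, a lipogenic regulator, ran from 2345 in liver 4 to 6980.2 in liver 3, Elovl6, a fatty acid elongase, from 460.5 in liver 4 to 1343 in liver 6, and Txnip, a glucose-induced thioredoxin inhibitor, from 724 in liver 4 to 1987 in liver 2.

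The genes most like each member were found by Pearson's r over the 8 livers among 4818 other tested genes, and are given as a description with no test. Each of the 7 tested members had at least 3 genes above 0.9. How many such genes other profiles over 8 livers would have was not computed, so the count is not read as a trait of the members. G6pc was most like Cryl1 (r = 0.990), Pdyn (0.959) and Pou2f3 (0.904), the widest of which, Pdyn, had a 1.74-fold range against 6.21-fold for G6pc, and least like Pja1 (-0.952). Slc37a4 was most like Pipox (0.972), Atp5g2 (0.967) and Cyp2b13 (0.966), a cytochrome P450 that ran from 3054 to 10061, and least like Abcg1 (-0.938). Pck1 was most like Slc25a51 (0.963), Crem (0.944) and Lrrfip2 (0.924), and least like Cdc42 (-0.937). Crem encodes a cAMP-responsive modulator and ran from 133 to 231.

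Fbp1 was most like Cyp3a11 (0.965), Pcbd1 (0.946) and Tgoln1 (0.936), and least like Chka (-0.957). Pcx was most like Fah (0.963), the last enzyme of tyrosine breakdown, Tmem115 (0.944) and Echs1 (0.942), and least like the interferon-induced Ifi27l2a (-0.931). Slc2a2 was most like Hao2 (0.972), Rmnd5a (0.972) and Serpinf1 (0.966), and least like Atp1b3 (-0.981). Pklr was most like Suclg2 (0.963), Slc10a1 (0.962), the bile acid uptake transporter of hepatocytes, and Cyp2a12 (0.949), and least like Palm (-0.946). No gene appeared in the top 3 of more than 1 member.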

How the data were processed

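The authors deposited linear intensity values, 1 for each of 12488 probe sets on each of 8 arrays. Scanning used a GeneArray instrument, per the labels. The image software and its scaling target are not named in the sources used here. The mean after trimming 2% at each end differed by 0.00896% between arrays, so values were used as deposited. Intensities under the 10th percentile (11.2) were set to it before log2 transformation. The array's 66 controls entered no test. Tested probe sets (6211, for 4819 genes) had a mean log2 signal above the median, a signal of 162. A gene was represented by its brightest non-control probe set, and names came from the platform annotation. On replication, nothing in the labels says more than that each sample is 1 liver, so all p-values refer to these 8 samples only. The variance tests set the spread over them against that of other probe sets, and the permutation tests shuffle the pairing of profiles over them.

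Variances were tested with limma 3.58.1 in R 4.3.3 (intensity-trended robust prior, one-sided F test with 7 degrees of freedom against a prior of 4.90). The typical-variance test set each variance against a loess curve (span 0.3) with a chi-square distribution, as a call of variation beyond most probe sets of like signal. Both used Benjamini-Hochberg adjustment over all tested probe sets and a threshold of 0.05, and both were tested on simulated data. Correlations used exact two-sided permutation tests in numpy 2.4.6, adjusted within 3 families of 28, 32 and 24 relations, fewer than planned because Mlxipl was not analysed here. No pooled correlation was to be given where a gap over 50% of the range split the livers, and none did. Members, gene lists, tests and promoter motifs were chosen with earlier results of these data known. Named genes were all members, in each pathway list the 3 most variable that passed the typical-variance test, or the most variable where none passed, and the 3 most and 1 least correlated genes for each tested member. Promoters came from RefSeq (GRCm38.p6), matched by symbol for 9 of 9 genes.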

Additional observations from a re-analysis of the deposited data

How the results depend on the processing

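No paired analysis was possible because all 8 samples belong to 1 group. The typical-variance count stayed within 1.5 times 702 under all 15 alternatives run. limma's count of 0 became 10 with arrays scaled to a common median and ranged from 0 to 4 with 1 liver left out. The counts of correlations past adjustment, from exact permutation, ranged with 1 liver left out from 0 to 1 for member pairs, from 0 to 1 for array measures and from 0 to 7 for marker means. The last count, 1 of 24 as reported, was 3 with median scaling, 0 with quantile normalization, 0 without livers 4 and 8, and 2 after centring within arrays 1 to 4 and 5 to 8. Among correlations with an unadjusted p under 0.05, 4 changed sign: Slc37a4 with Pcx (-0.0466) and Pcx with the median signal (0.0878) when both Pcx gene probe sets were averaged, and Slc2a2 with Pklr (-0.0288) and Slc37a4 with the macrophage mean (0.0615) without livers 4 and 8. The causes of these changes were not tested. G6pc passed the typical-variance test under every alternative run. The second Pklr probe set in place of the brighter one, and list counts without livers 4 and 8, were chosen after seeing the data, and their values stand beside the results. The second Pklr probe set also passed without liver 3, 5 or 8 (adjusted p = 0.044, 0.0433 and 0.0355). Of 104 ranges of members recomputed, 97 moved by less than 1 SD. One array per liver leaves measurement error and differences between mice inseparable, and low signals such as those of Ppargc1a have no detection call.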

Other observations

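Some glucose-handling isoforms of other tissues were dim on average and not tested (Hk2, Slc2a1, Pfkp and Slc2a4), and they are given here with 2 tested phosphofructokinase genes, all chosen after their values were seen. Hk2, hexokinase 2, had signals of 219.6 in liver 4 and 118.6 in liver 8, against 11.3 to 66.1 in the other 6. Slc2a1, the glucose transporter GLUT1, read 257 in liver 4 and 217 in liver 8, against 34.1 to 175 elsewhere. Pfkp, the platelet-type phosphofructokinase, read 150.3 in liver 4 and at most 38.8 elsewhere. Slc2a4, the glucose transporter GLUT4, ran the other way, with 27.7 in liver 4, the lowest value, against 53.7 to 214.8 elsewhere. Pfkm, the muscle-type phosphofructokinase, read 793.4 in liver 4 and nearly the same in liver 8 (797.6), against 905.4 to 1068 in the other 6. Pfkl, the liver-type phosphofructokinase, stayed between 1306 in liver 4 and 1697 in liver 2. The macrophage markers had their highest sums in the same livers 4 and 8, and their part in these values was not tested. Irs2, an insulin receptor substrate, read 24.5 in liver 4 and 186 in liver 3, the lowest and the highest of the 8, and only livers 2 and 3 lay above their array median.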
